A study of Homo sapiens with 12 samples.

Results

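The 50 genes described here are interferon-stimulated genes, the antiviral and signalling genes that cells switch on when interferon reaches them. They were chosen by gene symbol from a list, which was drawn up with earlier results of these data known, and all 50 were found among the 15798 gene symbols of the ribosome profiling (Ribo-seq) table. HCT116, a human colorectal cancer cell line and the only model used, was kept for 24 h in 100 nM trametinib, an inhibitor of the MEK1/2 kinases that activate ERK, or in the solvent DMSO. From each of these arms, 3 biological replicates gave a library of randomly fragmented input RNA and a library of ribosome footprints, the stretches of mRNA that ribosomes protect from RNase I. That makes 12 libraries in 4 groups of 3, all from cytoplasmic lysates of cells given cycloheximide shortly before harvest. No group received interferon, and all values below compare trametinib with DMSO.

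Interferons are secreted proteins that bind receptors on the cell surface, where the kinases JAK1 and TYK2 phosphorylate STAT proteins, among them STAT2. Phosphorylated STAT2 is part of ISGF3, which also holds IRF9 and binds the interferon-stimulated response element (ISRE) in promoters, while other STAT dimers bind the gamma-activated site (GAS). The genes behind these elements encode proteins that sense foreign RNA, block its translation, restrict viral entry or budding, and attach the ubiquitin-like protein ISG15 to other proteins. Many are also expressed at a low level in epithelial cells that have met no virus.

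Input libraries held 2276693 to 2845568 counts and footprint libraries 10127477 to 19181588, so footprints carry the smaller counting error. Values per library are counts divided by a size factor that makes all 12 libraries comparable, called normalized counts below. The DMSO replicate 1 libraries stood apart from the other DMSO libraries: 177 of 7570 genes with a mean of at least 100 normalized counts (2.34%) lay at least 2-fold beyond both other DMSO inputs, against 10 and 40 genes for replicates 2 and 3. In footprints the same comparison gave 218 of 7301 genes for replicate 1 and 1 and 22 genes for the others. The footprint calls of 4 of the 50 genes changed without this replicate, so results that rest on it are given both ways. DUSP6, an ERK target that checks the drug, fell from 1613, 1357 and 1206 normalized input counts in DMSO to 12, 7.72 and 0 with trametinib. EPCAM, an epithelial surface marker, was abundant in every library, at 1079 to 1966 normalized input counts. Of 8 epithelial markers 7 passed the filter described next, the exception being VIL1. Of the 7, 4 were higher in input and 5 in footprints, against 13.9% and 24% of all tested genes. Of 8 immune cell markers 7 were listed, with PTPRC, CD3E and CD14 under 10 counts in every library. Their summed level was 2.16 to 6.48 normalized counts in DMSO inputs and 25.7 to 26.5 in trametinib inputs, and 7.37 to 13.0 and 26.6 to 30.8 in the footprints, nearly all of it from LCP1, CD68 and LYZ. All samples were cultures of HCT116 alone, and why these markers rose was not tested. In bulk samples more cells with a transcript and more of it per cell cannot be told apart.

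Relative to other genes of the same assay, trametinib raised most interferon-stimulated genes, in mRNA and in footprints alike. It lowered none of them in the fits that used every library. The scaling hides any change shared by all genes. The paper reports that trametinib reduced global protein synthesis in this cell line at this dose and time. A higher footprint value therefore need not be an absolute gain, above all where the rise was small. The test took in genes that reached 10 counts in 3 or more of the 12 libraries, which kept 12000 genes and 43 of the 50 members. In input RNA 30 of the 43 were higher at an adjusted p under 0.05 (edgeR quasi-likelihood test with Benjamini-Hochberg adjustment over all 12000 genes), and 13.9% of all tested genes were. In footprints 38 of the 43 were higher, against 24% of all tested genes. The counts of members called lower were 0 in input and 0 in footprints, where 15.5% and 24.4% of all tested genes were lower. At an unadjusted p under 0.05 the edgeR test still gave 0 lower members in either assay, as did the Wald test of DESeq2. At the adjusted threshold the Wald test called 27 members higher in input and 37 in footprints. It did not call IFI27, TRIM22 and GBP3 in input (adjusted p = 0.12, 0.11 and 0.080) or IRF3 in footprints (adjusted p = 0.077). Changes of at least 2-fold were called in 27 members in input and in 31 in footprints, with 6.72% and 8.68% of all tested genes as the background. The input calls of IFI27, IFI35, IFITM3, TRIM21, TRIM22 and GBP3 and the footprint calls of IRF3, EIF2AK2 and CMPK2 were lost when certain single libraries were left out. All 30 members that were higher in input were also higher in footprints, a combination found in 12% of all tested genes.

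**Figure D1:**
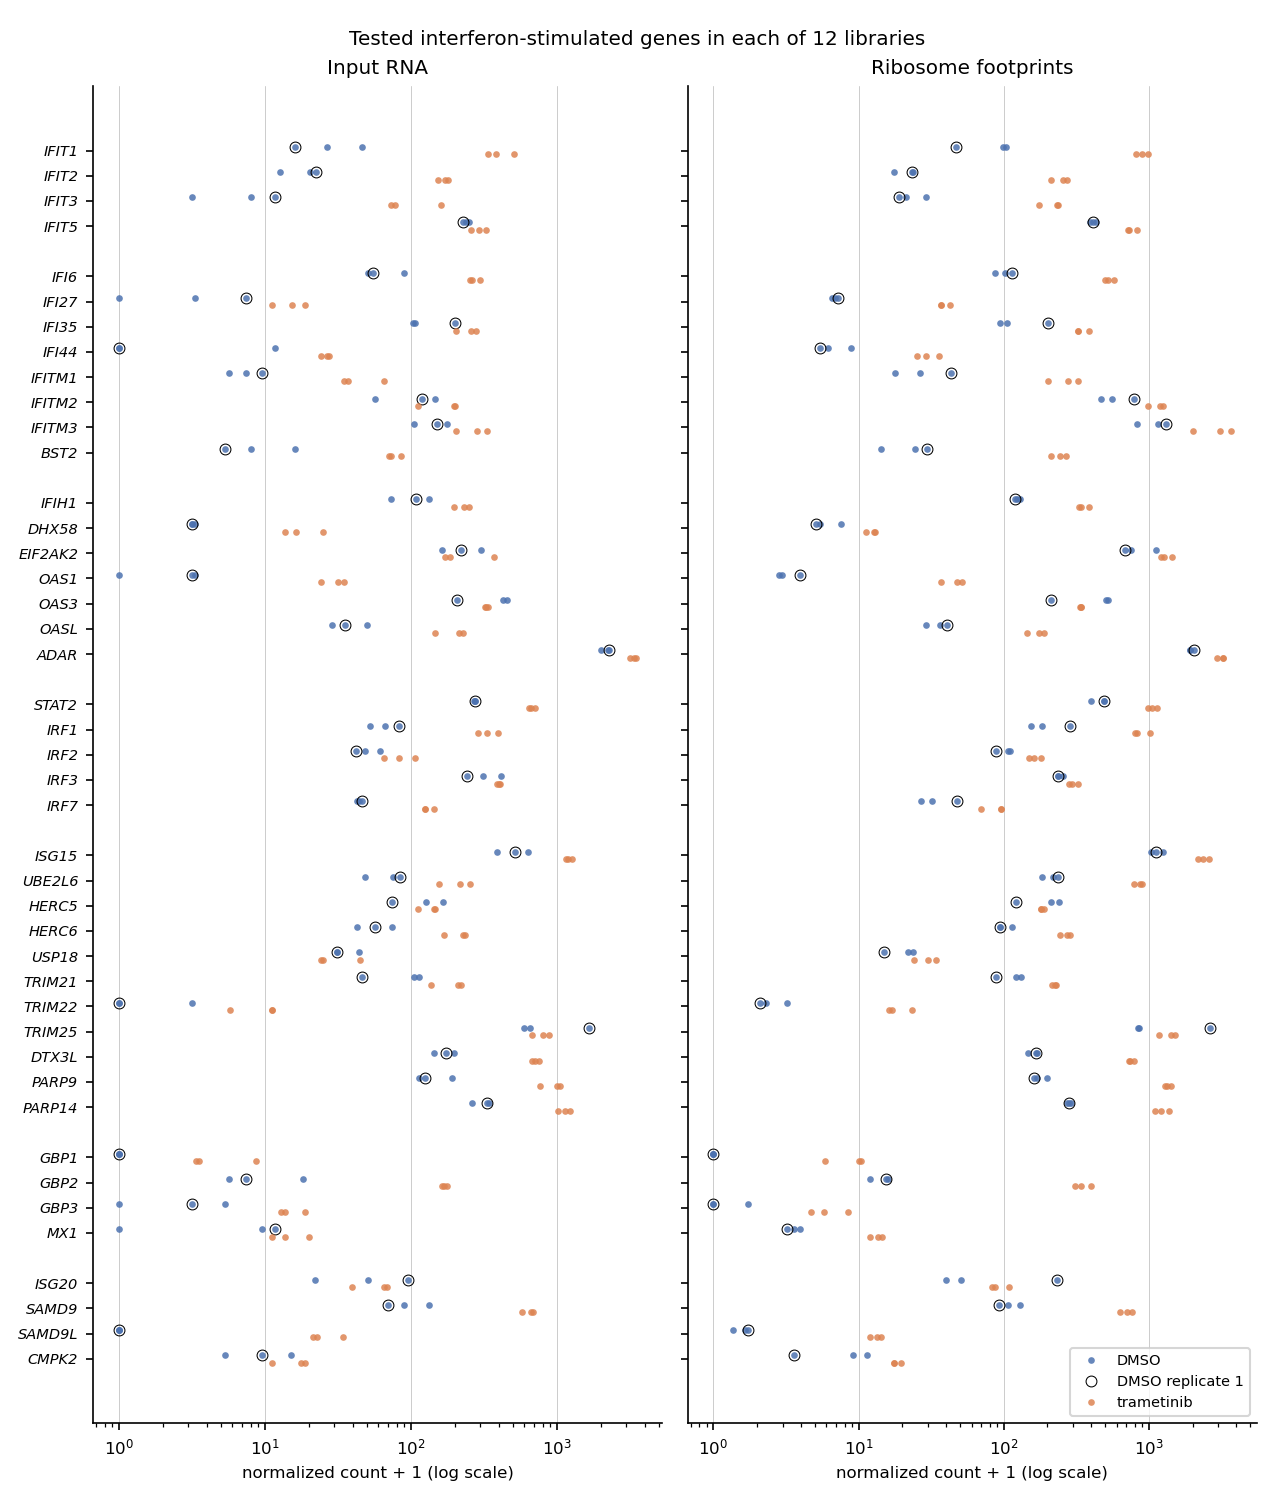
Normalized counts plus 1 of the 43 tested interferon-stimulated genes (rows, grouped by role) in each library, on a log axis, for input RNA (left) and ribosome footprints (right). Blue points are DMSO libraries, orange points trametinib libraries, and circles mark DMSO replicate 1. In footprints the 3 trametinib points lie above all 3 DMSO points for 39 of the 43 genes, and TRIM25, ISG20, OAS3 and HERC5 overlap.

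The median log2 change of the 43 members was 1.85 in input and 2.00 in footprints, where the medians over all 12000 tested genes were 0.00324 and 0.00166. With members at no more than 3 counts in every DMSO library set against 3 counts per library, which applies to 7 members in input and 3 in footprints, these medians were 1.30 and 1.93. Every trametinib input lay above every DMSO input for 33 of the 43 members, and every trametinib footprint library lay above every DMSO one for 39, with 22.8% and 30.1% of all tested genes doing the same. Among the members, 8 passed the filter through their trametinib libraries alone (IFI27, OAS1, TRIM22, GBP1, GBP3, MX1, SAMD9L and CMPK2), so that they could hardly have come out lower. Of the other 35, which pass on their DMSO libraries, 25 were higher in input and 30 in footprints, which is 71.4% and 85.7%, against 13.6% and 22.6% of the 11405 tested genes that pass in the same way. Without the DMSO replicate 1 pair 29 members were higher in input and 40 in footprints, and 2 were lower in footprints, with 14.6%, 29.2% and 29.3% of all genes so called.

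**Figure D2:**
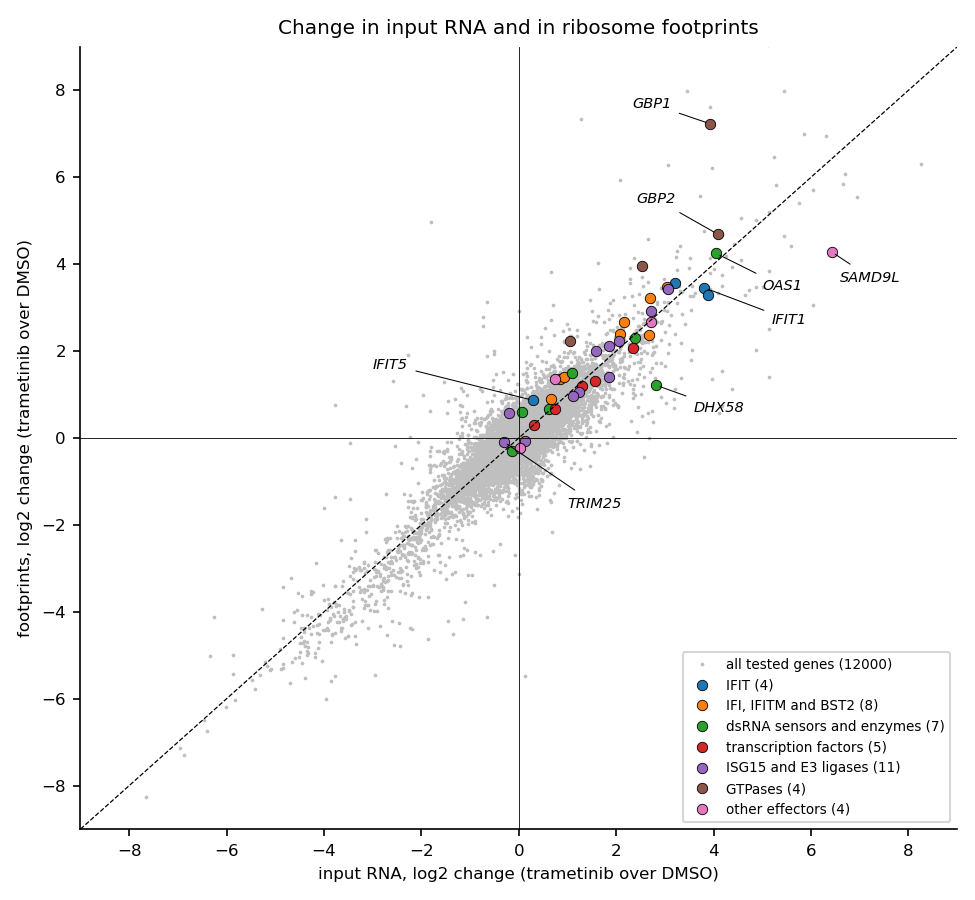
Log2 change, trametinib over DMSO, in input RNA (horizontal axis) and in ribosome footprints (vertical axis) for all 12000 tested genes (grey) and the 43 tested members (coloured by role), with the line of equal change dashed. The members lie along the dashed line, most of them in the upper right, at medians of 1.85 and 2.00.

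Some members, such as the IFIT genes, lie in genomic clusters, and others stand alone. Many share promoter elements. Interferon acts on such genes through these elements, so finding them here is not independent of the choice of members. RefSeq promoters, 250 bases before to 50 after each start on GRCh38.p14, were matched for 38 of the 50 members. The ISRE core, GAAA followed after any 2 bases by a further GAAA and searched on both strands, was present in 23 of the 38 (60.5%), against 3.65% of 27305 promoters of all genes and 2.72% of the 9721 matched promoters of tested genes. The GAS pattern TTCNNNGAA was present in 9 of the 38 (23.7%), against 7.88% and 6.04%. Of the 22 tested members with an ISRE core, 19 were higher in footprints, and of the 11 tested members without that core in the window 10 were. Over all tested genes 24% were. Of these members, GBP1, GBP3, IFI27 and MX1 with the core and OAS1, SAMD9L and CMPK2 without it passed the filter through trametinib libraries alone. The stretches below lie upstream of their genes and are shown because they hold the core in 7 members that rose in footprints and in HERC5, which was not called. Each reads 5′ to 3′ on the strand of its gene, with the core or its reverse complement in capitals.
IFIT1, chr10:89392487-89392545, plus strand: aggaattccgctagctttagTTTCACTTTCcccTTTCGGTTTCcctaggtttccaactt
IFIT5, chr10:89414503-89414567, plus strand: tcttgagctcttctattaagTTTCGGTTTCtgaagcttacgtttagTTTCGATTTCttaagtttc
IFI6, chr1:27672256-27672368, minus strand: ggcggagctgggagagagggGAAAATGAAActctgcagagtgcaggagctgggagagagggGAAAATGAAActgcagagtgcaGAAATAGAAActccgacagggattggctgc
IFI44, chr1:78649751-78649788, plus strand: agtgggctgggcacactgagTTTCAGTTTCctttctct
BST2, chr19:17405725-17405780, minus strand: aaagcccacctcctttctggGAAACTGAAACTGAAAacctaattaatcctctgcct
PARP14, chr3:122680790-122680838, plus strand: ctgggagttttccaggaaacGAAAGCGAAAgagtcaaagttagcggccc
SAMD9, chr7:93118086-93118135, minus strand: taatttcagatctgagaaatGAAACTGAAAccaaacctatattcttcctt
HERC5, chr4:88456974-88457074, plus strand: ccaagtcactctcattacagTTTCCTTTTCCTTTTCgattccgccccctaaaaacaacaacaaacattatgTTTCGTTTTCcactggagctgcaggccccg
In BST2 and HERC5 neighbouring cores overlap and merge into a longer run of capitals. A match is a string of letters and no evidence of binding.

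Upstream of these genes, ligands gave almost no counts and 1 of 5 tested receptor genes was called. Of 22 interferon ligand genes 4 were listed (IFNE, IFNL1, IFNL2 and IFNL3), and their summed counts were 0 in all DMSO inputs, 0 to 2 in trametinib inputs, and at most 5 and 6 in a DMSO and a trametinib footprint library. None of them could be tested, and the other 18 ligand genes had no row in the table. IFNAR1, a chain of the type I interferon receptor, gave 175, 212 and 148 normalized input counts in DMSO and 118, 106 and 141 with trametinib and 147, 183 and 159 in DMSO and 187, 169 and 205 with trametinib in footprints. Its changes of -0.56 ± 0.22 (SE, adjusted p = 0.068) in input and 0.19 ± 0.14 (SE, adjusted p = 0.26) in footprints did not pass the test. IFNAR2, the other chain, was below the filter, with 2.16 to 9.63 normalized input counts over all 6 input libraries. IFNGR2, a chain of the interferon gamma receptor, was the only receptor gene of 5 tested that was called, falling from 354, 266 and 288 normalized counts in DMSO to 156, 149 and 129 with trametinib in input. There 15.5% of all tested genes were lower. The footprints of IFNGR2 were lower too, at -0.58 ± 0.19 (SE, adjusted p = 0.033) without overlap, where 24.4% of all tested genes were lower. JAK1, a kinase bound to these receptors, was at 1268, 897 and 841 normalized input counts in DMSO and 1122, 1179 and 1370.3 with trametinib, a change of 0.28 ± 0.18 (SE, adjusted p = 0.26), and its footprints were higher by 0.63 ± 0.15 (SE, adjusted p = 0.0075). TYK2 did not pass in input (0.29 ± 0.18 SE, adjusted p = 0.25) or in footprints (0.14 ± 0.13 SE, adjusted p = 0.41). STAT4 (1.70 ± 0.15 SE in footprints), STAT3 (1.17 ± 0.12 SE) and STAT6 (1.14 ± 0.14 SE) were each higher in both assays.

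Of the transcription factors among the members, IRF1, IRF7 and STAT2 rose at least 2-fold in both assays, and IRF2 and IRF3 rose by less, and passed the test in footprints alone. STAT2, a subunit of ISGF3, gave 276, 270.1 and 274 normalized input counts in DMSO and 669, 713 and 648 with trametinib, and 490.3, 488 and 395 in DMSO and 1131, 1053 and 984 with trametinib in footprints. No trametinib library overlapped a DMSO library in either assay, and STAT2 rose by 1.30 ± 0.15 (SE, adjusted p = 2.8e-05) in input and 1.199 ± 0.13 (SE, adjusted p = 8.8e-05) in footprints. IRF1, a factor that binds ISRE-like elements on its own, was at 82, 51.9 and 65.6 normalized input counts in DMSO and 289, 396 and 332 with trametinib and in footprints at 283, 182 and 154 in DMSO and 798, 1015 and 826 with trametinib. Its groups did not overlap either, at a change of 2.34 ± 0.23 (SE, adjusted p = 4.1e-06) in input and 2.08 ± 0.22 (SE, adjusted p = 9.4e-05) in footprints. IRF7, which drives later waves of interferon transcription, had 45.3, 43.2 and 42.1 normalized input counts in DMSO and 144, 124 and 123 with trametinib and 46.4, 31.3 and 25.8 in DMSO and 95.2, 95.3 and 68.5 with trametinib in footprints. The change was 1.57 ± 0.23 (SE, adjusted p = 0.0002) in input and 1.31 ± 0.24 (SE, adjusted p = 0.002) in footprints, again without overlap. IRF2, often an antagonist of IRF1, had 41, 47.5 and 60.9 normalized input counts in DMSO and 81.8, 106 and 64.3 with trametinib, a change of 0.75 ± 0.28 (SE, adjusted p = 0.06) that missed the threshold although the groups did not overlap. In footprints IRF2 had 88, 106 and 109.9 in DMSO and 148, 178 and 159 with trametinib and rose by 0.67 ± 0.14 (SE, adjusted p = 0.0044). IRF3, a latent factor activated by phosphorylation, had 242, 311 and 412 normalized input counts in DMSO and 407, 399 and 391 with trametinib, and the groups overlapped (0.31 ± 0.20 SE, adjusted p = 0.26). Its footprints, 236, 254 and 234 in DMSO and 294, 321 and 279 with trametinib, did not overlap and were called by a small margin at 0.30 ± 0.11 (SE, adjusted p = 0.047). With the replicate number as a block the edgeR adjusted p of IRF3 in footprints was 0.054, and leaving out any library other than DMSO replicate 1 also took it above 0.05. IRF9, the DNA-binding subunit of ISGF3, could not be measured, since it had 0 to 2 counts per library and every 30-base window of its coding sequence also occurs under another gene symbol.

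IFIT proteins bind viral RNA that lacks the cap structure of the cell's own mRNAs, and 3 of the 4 IFIT genes were among the strongest gains. IFIT1 gave 15.1, 45.4 and 25.8 normalized input counts in DMSO and 337, 509.5 and 380.5 with trametinib. In footprints it gave 45.7, 97.1 and 102 in DMSO and 814, 891 and 986 with trametinib. Its lowest trametinib library lay above its highest DMSO library in both assays, and the ratio of group means was 14.2 in input and 10.98 in footprints, with log2 changes of 3.81 ± 0.31 (SE, adjusted p = 6.5e-07) and 3.46 ± 0.27 (SE, adjusted p = 1.4e-05). IFIT2 was at 21.6, 19.4 and 11.7 normalized input counts in DMSO and 171, 152 and 180.0 with trametinib, and in footprints at 22.5, 22.8 and 16.6 in DMSO and 209.5, 255 and 273 with trametinib. The rise of IFIT2 was 3.22 ± 0.28 (SE, adjusted p = 1.4e-06) in input and 3.58 ± 0.18 (SE, adjusted p = 1.1e-06) in footprints, without overlap. IFIT3 had 10.8, 2.16 and 7.02 normalized input counts in DMSO and 72.2, 159.5 and 77.1 with trametinib, and 18, 28 and 20.3 in DMSO and 175, 233 and 235 with trametinib in footprints. No DMSO library reached a trametinib library, and the rise was 3.89 ± 0.50 (SE, adjusted p = 5.5e-05) in input and 3.30 ± 0.21 (SE, adjusted p = 3.7e-06) in footprints. IFIT5 started at a higher level and had 226, 248 and 236 normalized input counts in DMSO and 327, 257 and 291 with trametinib, a change of 0.29 ± 0.17 (SE, adjusted p = 0.22) that was not called. Its footprints, 409.6, 394 and 432 in DMSO and 728, 719 and 822 with trametinib, rose by 0.87 ± 0.11 (SE, adjusted p = 0.00022) with no overlap. The 4 genes lie within chr10:89283694-89421605 (GRCh38).

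All 8 tested IFI, IFITM and BST2 genes were higher in footprints and 7 of them in input. IFI6, a small mitochondrial and endoplasmic reticulum protein, had 53.9, 49.7 and 89 normalized input counts in DMSO and 255, 299 and 262 with trametinib and 113, 102 and 85.5 in DMSO and 574, 520.2 and 494 with trametinib in footprints. It rose by 2.08 ± 0.24 (SE, adjusted p = 2.2e-05) in input and 2.40 ± 0.14 (SE, adjusted p = 2.1e-06) in footprints, with a wide gap between groups. IFI27 had few input reads, 6.47, 0 and 2.34 normalized input counts in DMSO and 14.4, 18 and 10.3 with trametinib, and 6.26, 5.86 and 5.53 in DMSO and 41.8, 36.2 and 36.2 with trametinib in footprints. Only 4 counts lie behind its 3 DMSO inputs, and set against 3 counts per library the input ratio was 2.14. The input call (edgeR adjusted p = 0.048) was lost when any library but DMSO replicate 1 was left out, with adjusted p-values of 0.067 to 0.15 and fitted log2 changes of 1.59 to 3.34 over all single libraries left out. The footprint change was 2.68 ± 0.21 (SE, adjusted p = 1.5e-05). IFI44 had 0, 10.8 and 0 normalized input counts in DMSO and 26.5, 25.7 and 23.1 with trametinib, and 4.42, 7.82 and 5.16 in DMSO and 24.3, 28.4 and 34.7 with trametinib in footprints, with changes of 2.67 ± 0.75 (SE, adjusted p = 0.016) and 2.36 ± 0.28 (SE, adjusted p = 0.00017). All 5 of its DMSO input counts came from replicate 2. IFI44L, its neighbour, had at most 1 count in any library. IFI35, a partner of NMI, had 201, 106 and 103 normalized input counts in DMSO and 202, 280.5 and 259.7 with trametinib, with DMSO replicate 1 close to the trametinib level, and 200.02, 93.1 and 104 in DMSO and 324, 387 and 326 with trametinib in footprints. Its rise of 0.85 ± 0.26 (SE, adjusted p = 0.025) in input and 1.36 ± 0.26 (SE, adjusted p = 0.0025) in footprints became 1.23 ± 0.23 and 1.79 ± 0.13 without that replicate.

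IFITM proteins and BST2 sit in membranes and act against enveloped viruses. IFITM1, which blocks viral fusion, had 8.63, 6.48 and 4.68 normalized input counts in DMSO and 33.7, 64.3 and 36 with trametinib, and 42, 25.4 and 17 in DMSO and 275, 322 and 201 with trametinib in footprints. It rose by 2.69 ± 0.48 (SE, adjusted p = 0.00081) in input and 3.22 ± 0.31 (SE, adjusted p = 5.6e-05) in footprints. IFITM3, the endosomal member, had 151, 104 and 176 normalized input counts in DMSO and 284, 203 and 332 with trametinib, and 1315, 1148 and 832 in DMSO and 3091, 3681 and 2025 with trametinib in footprints. Trametinib libraries stood above DMSO libraries throughout, and the change was 0.92 ± 0.24 (SE, adjusted p = 0.01) in input and 1.41 ± 0.24 (SE, adjusted p = 0.0013) in footprints. IFITM2 overlapped in input, at 0.67 ± 0.32 (SE, adjusted p = 0.13), and rose by 0.90 ± 0.19 (SE, adjusted p = 0.0044) in footprints. These 3 genes are near-copies of each other: 63.3%, 40.9% and 70.3% of the 30-base windows of IFITM1, IFITM2 and IFITM3 also occur under another symbol, and since reads of more than 1 symbol were not counted, their values rest on the remainder. BST2, or tetherin, which holds budding virions at the cell surface, had 4.31, 15.1 and 7.02 normalized input counts in DMSO and 84.2, 69.5 and 72 with trametinib, and 28.4, 23.5 and 13.3 in DMSO and 212, 267 and 243 with trametinib in footprints. It rose by 3.04 ± 0.40 (SE, adjusted p = 6.5e-05) in input and 3.47 ± 0.25 (SE, adjusted p = 8.5e-06) in footprints, the largest footprint estimate of these 8 genes.

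Among proteins that recognise or act on double-stranded RNA, 5 of 7 tested members were higher in input and 6 in footprints, where OAS3 was the exception. IFIH1, the sensor MDA5, had 108, 132 and 72.6 normalized input counts in DMSO and 231, 249.6 and 195 with trametinib, and 119, 122 and 128 in DMSO and 384, 329 and 339 with trametinib in footprints. It rose by 1.10 ± 0.23 (SE, adjusted p = 0.0028) in input and 1.505 ± 0.12 (SE, adjusted p = 1.4e-05) in footprints, with no overlap. DHX58, the regulator LGP2, had 1 count in each DMSO input and 10, 6 and 5 counts in the trametinib inputs, a ratio of 7.94 with a 95% counting interval of 2.37 to 41.6. Its footprints, 4.05, 6.51 and 4.42 in DMSO and 11.7, 10.3 and 11.9 with trametinib, rose by 1.21 ± 0.29 (SE, adjusted p = 0.0071). DDX58, the sensor RIG-I, held at most 2 counts in any input and 9 in any footprint library, and 96.2% of its windows occur under another symbol, so no level can be given for it. OAS1, which makes the second messenger that activates RNase L, had 1, 0 and 1 counts in its DMSO inputs and 14, 12 and 9 with trametinib, a ratio of 19.9 with a counting interval of 5.10 to 170.4. In footprints OAS1 had 2.95, 1.95 and 1.84 in DMSO and 47, 50.9 and 35.7 with trametinib and rose by 4.25 ± 0.29 (SE, adjusted p = 6.2e-06). OASL, a catalytically inactive relative, had 34.5, 28.1 and 49.2 normalized input counts in DMSO and 229, 214 and 147 with trametinib, and 39.4, 35.2 and 28 in DMSO and 175, 188 and 143 with trametinib in footprints. The groups were apart and OASL rose by 2.39 ± 0.28 (SE, adjusted p = 2.2e-05) in input and 2.30 ± 0.18 (SE, adjusted p = 1.5e-05) in footprints. OAS2 held at most 1 count per library. ADAR, which edits adenosine to inosine, was the member with the most counts and gained little, at 0.62 ± 0.14 (SE, adjusted p = 0.0042) in input and 0.67 ± 0.11 (SE, adjusted p = 0.00098) in footprints. EIF2AK2, the kinase PKR, overlapped in input (0.07 ± 0.29 SE, adjusted p = 0.88) and rose by 0.61 ± 0.18 (SE, adjusted p = 0.022) in footprints.

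ISG15, the E2 enzyme UBE2L6 and the ligase HERC6 rose, and the ligase HERC5 was not called. ISG15 had 518, 389 and 635 normalized input counts in DMSO and 1155, 1194 and 1278 with trametinib, and 1117, 1257 and 1037 in DMSO and 2602, 2338 and 2169.7 with trametinib in footprints. It rose by 1.23 ± 0.18 (SE, adjusted p = 0.0002) in input and 1.05 ± 0.13 (SE, adjusted p = 0.00018) in footprints, its 3 trametinib libraries standing above the DMSO ones in each assay. UBE2L6, which carries ISG15, had 84.1, 47.5 and 74.9 normalized input counts in DMSO and 156, 216 and 255 with trametinib, and 234, 218 and 183 in DMSO and 864, 899 and 793 with trametinib in footprints. Its gain was 1.59 ± 0.27 (SE, adjusted p = 0.00052) in input and 2.00 ± 0.13 (SE, adjusted p = 4e-06) in footprints. HERC6 had 56.1, 73.5 and 42.1 normalized input counts in DMSO and 229, 234 and 167 with trametinib, and 93.9, 113 and 92.5 in DMSO and 244, 271 and 284 with trametinib in footprints, a rise of 1.86 ± 0.25 (SE, adjusted p = 8.7e-05) in input and 1.41 ± 0.13 (SE, adjusted p = 4.9e-05) in footprints. HERC5, the main human ISG15 ligase and the neighbour of HERC6 on chromosome 4, is described with the uncalled genes below.

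DTX3L, a ubiquitin ligase, and PARP9, its partner, share a bidirectional promoter on chromosome 3 with PARP14 close by, and all 3 rose. DTX3L had 175, 197 and 143 normalized input counts in DMSO and 712, 679 and 751 with trametinib, and 167, 167 and 146 in DMSO and 732, 791 and 737 with trametinib in footprints. PARP9 had 125, 190.1 and 112 normalized input counts in DMSO and 999, 1052 and 771 with trametinib, and 161, 198 and 169.6 in DMSO and 1327, 1414 and 1279.7 with trametinib in footprints. For both genes every trametinib library lay well above every DMSO library, and the rise was 2.05 ± 0.17 (SE, adjusted p = 1.1e-06) and 2.23 ± 0.11 (SE, adjusted p = 1e-06) for DTX3L in input and footprints. For PARP9 it was 2.71 ± 0.22 (SE, adjusted p = 5.8e-07) and 2.92 ± 0.12 (SE, adjusted p = 4.3e-07), among the smallest standard errors of the larger gains. PARP14, a mono-ADP-ribosyltransferase, had 330.0, 341 and 259.9 normalized input counts in DMSO and 1229.8, 1014 and 1139 with trametinib, and 282, 291 and 271 in DMSO and 1104, 1216 and 1366 with trametinib in footprints. The log2 change of PARP14 was 1.85 ± 0.17 (SE, adjusted p = 2e-06) in input and 2.12 ± 0.12 (SE, adjusted p = 1.8e-06) in footprints.

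TRIM proteins are RING ubiquitin ligases, and TRIM21 and TRIM22 rose while TRIM25 was not called. TRIM21, an intracellular antibody receptor, had 45.3, 104 and 112 normalized input counts in DMSO and 137, 208 and 219 with trametinib, and 88, 119.9 and 131 in DMSO and 214, 227 and 225 with trametinib in footprints. It rose by 1.11 ± 0.30 (SE, adjusted p = 0.014) in input and 0.97 ± 0.16 (SE, adjusted p = 0.0011) in footprints, with DMSO replicate 1 lowest in both assays. TRIM22 had 0, 1 and 0 counts in its DMSO inputs and 2, 4 and 4 with trametinib, a ratio of 11.3 with a counting interval of 1.61 to 492.3. In footprints TRIM22 had 1.11, 1.3 and 2.21 in DMSO and 16, 15.2 and 22.4 with trametinib and rose by 3.44 ± 0.36 (SE, adjusted p = 9.4e-05). TRIM25, the ligase of the RIG-I pathway, follows below.

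Guanylate-binding proteins are large GTPases that coat intracellular pathogens, and all 3 members were higher in footprints from low DMSO levels. GBP2 had 6.47, 17.3 and 4.68 normalized input counts in DMSO and 176, 167 and 162 with trametinib, and 14.4, 15 and 11.1 in DMSO and 338, 395 and 308 with trametinib in footprints. The groups were far apart, and GBP2 rose by 4.09 ± 0.35 (SE, adjusted p = 1.1e-06) in input and 4.69 ± 0.18 (SE, adjusted p = 2.9e-07) in footprints, the largest footprint change of the members whose DMSO footprints were above 3 counts in each library. GBP1 had 0 counts in all 3 DMSO footprint libraries and 16, 23 and 19 counts in the trametinib ones, at least 5.62-fold higher when set against 3 counts per DMSO library (edgeR adjusted p = 0.00085). In input GBP1 had 0 counts in DMSO and 5 with trametinib, which is at or under the same floor in each library, so no ratio is given. GBP3 had 1, 2 and 0 counts in its DMSO inputs and 5, 7 and 5 with trametinib, a ratio of 6.43 with a counting interval of 1.86 to 34.2. In footprints GBP3 held 0, 0 and 2 counts in DMSO and 12, 18 and 10 with trametinib, a ratio of 17.9 with an interval of 4.64 to 152.7. Both DMSO counts came from replicate 3, and the fitted log2 footprint change ranged from 3.32 to 6.65 with single libraries left out. Windows shared with other symbols made up 43.9% of GBP1, 20.4% of GBP3 and 10.7% of GBP2. MX1, a dynamin-like GTPase that blocks viral replication, had 10.8, 8.64 and 0 normalized input counts in DMSO and 19.3, 12.9 and 10.3 with trametinib with overlap, and 2.21, 2.61 and 2.95 in DMSO and 12.6, 13.6 and 10.9 with trametinib in footprints, where it rose by 2.23 ± 0.30 (SE, adjusted p = 0.00035). MX2 held at most 3 counts per library.

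Of the remaining effectors, SAMD9 and SAMD9L, neighbours on chromosome 7 that restrict poxviruses, both rose. SAMD9 had 69, 132 and 89 normalized input counts in DMSO and 662, 687 and 581 with trametinib, and 92.5, 129 and 107 in DMSO and 627, 710.4 and 766 with trametinib in footprints. No library broke the order, and SAMD9 rose by 2.72 ± 0.22 (SE, adjusted p = 6.8e-07) in input and 2.68 ± 0.15 (SE, adjusted p = 1.8e-06) in footprints. SAMD9L had 0 counts in all 3 DMSO inputs and 9, 13 and 8 counts with trametinib, at least 3.79-fold higher against 3 counts per DMSO library. Its footprints, 0.737, 0.651 and 0.369 in DMSO and 11.1, 12.3 and 13.3 with trametinib, were called higher (edgeR adjusted p = 4.6e-05), on 2, 1 and 1 counts in DMSO, and set against 3 counts per DMSO library the ratio was 8.81. CMPK2, a mitochondrial nucleotide kinase, had 8.63, 4.32 and 14 normalized input counts in DMSO and 16.8, 10.3 and 18 with trametinib, with overlap and a change of 0.74 ± 0.56 (SE, adjusted p = 0.35). In footprints it had 2.58, 10.4 and 8.11 in DMSO and 18.7, 16.4 and 16.6 with trametinib, a rise of 1.37 ± 0.39 (SE, adjusted p = 0.018) without overlap. RSAD2, the neighbour of CMPK2 that encodes viperin, held at most 5 counts in any library, and XAF1 at most 4.

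The 5 tested members that were not called in footprints were TRIM25, ISG20, OAS3, HERC5 and USP18, and for 4 of them the footprint call changed when the DMSO replicate 1 pair was left out. TRIM25 had 1657, 596 and 656 normalized input counts in DMSO and 883, 674 and 807 with trametinib, and 2629, 853 and 838 in DMSO and 1506, 1420.4 and 1163 with trametinib in footprints. DMSO replicate 1 was the highest library in each assay, while the other DMSO libraries lay below all trametinib footprints. With all libraries the changes were -0.31 ± 0.31 (SE, adjusted p = 0.49) in input and -0.09 ± 0.40 (SE, adjusted p = 0.87) in footprints, and without the pair 0.32 ± 0.16 (SE, adjusted p = 0.15) and 0.68 ± 0.12 (SE, adjusted p = 0.00022). ISG20, an exonuclease that degrades single-stranded RNA, had 94.9, 49.7 and 21.1 normalized input counts in DMSO and 67.4, 38.6 and 64.3 with trametinib, and 232, 50.2 and 38.7 in DMSO and 108, 81.8 and 86.6 with trametinib in footprints. It showed the same order, and its footprint change of -0.24 ± 0.57 (SE, adjusted p = 0.75) became 1.08 ± 0.18 (SE, adjusted p = 0.00018).

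For OAS3 and HERC5 DMSO replicate 1 lay at the other end. OAS3, the long synthetase that responds to long double-stranded RNA, had 205, 454 and 426 normalized input counts in DMSO and 327, 339.7 and 321 with trametinib, and 212, 506 and 523 in DMSO and 334, 340.2 and 339.7 with trametinib in footprints. DMSO replicate 1 was its lowest library in each assay, and the footprint change of -0.29 ± 0.28 (SE, adjusted p = 0.42) became -0.61 ± 0.10 (SE, adjusted p = 8.9e-05) without the pair. HERC5 had 73.3, 164 and 126 normalized input counts in DMSO and 144, 147 and 111 with trametinib, and 121, 209.7 and 240.3 in DMSO and 188, 179.6 and 180.3 with trametinib in footprints. Its footprint change of -0.06 ± 0.22 (SE, adjusted p = 0.83) became -0.31 ± 0.11 (SE, adjusted p = 0.029). These are edgeR tests of 2 DMSO against 3 trametinib libraries. Both genes stand beside members that rose: OAS1 and OAS3 on chromosome 12, and HERC6 and HERC5 on chromosome 4. USP18, the protease that removes ISG15 and dampens receptor signalling, had 30.2, 43.2 and 30.4 normalized input counts in DMSO and 24.1, 43.7 and 23.1 with trametinib, and 14, 22.8 and 21 in DMSO and 33.2, 23 and 29 with trametinib in footprints. The footprint groups did not overlap, yet the changes did not pass in either assay, at -0.20 ± 0.37 (SE, adjusted p = 0.72) and 0.58 ± 0.24 (SE, adjusted p = 0.079), and did not without the pair, at an adjusted p of 0.15 in footprints. USP18 shares 57.7% of its windows with another symbol.

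**Figure D3:**
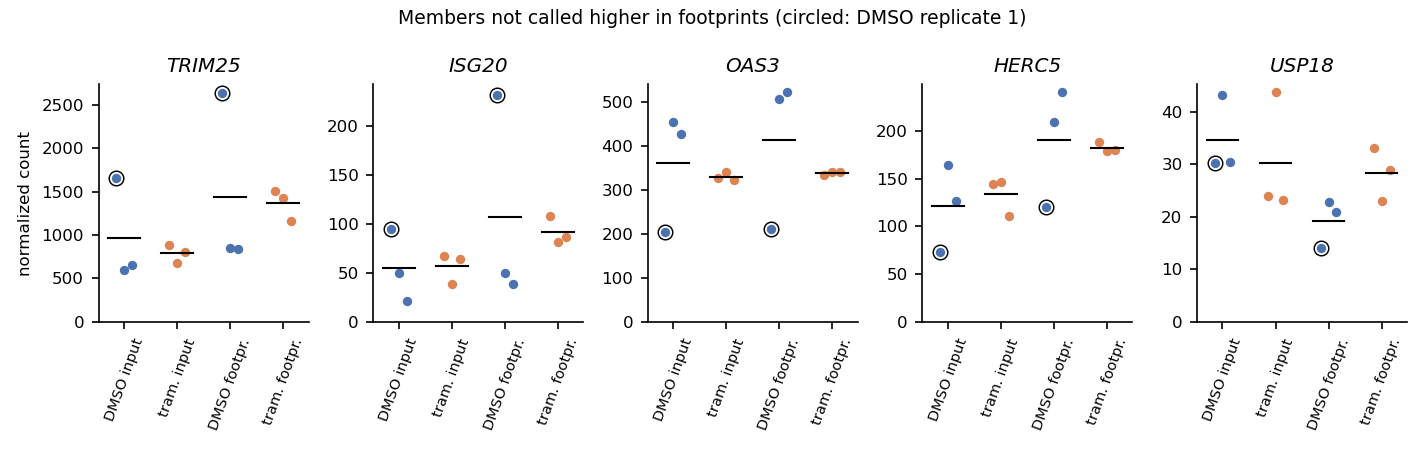
Normalized counts of the 5 tested members not called higher in footprints, in each library (points) with the group mean (line), for DMSO (blue) and trametinib (orange) in input RNA and footprints. Circles mark DMSO replicate 1, the highest DMSO library for TRIM25 and ISG20 and the lowest for OAS3 and HERC5 in both assays.

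Ribosome density, the ratio of footprints to input RNA, asks whether ribosomes on an mRNA changed more than the mRNA itself. Relative to other genes, no such difference was detected for the interferon-stimulated genes. A likelihood ratio test of the assay by treatment interaction (DESeq2, Benjamini-Hochberg over 12000 genes) called 0 of 43 members higher and 0 lower, where 0.275% and 1.23% of all tested genes were called. At an unadjusted p under 0.05 it gave 1 member, IFIT5, and the edgeR interaction test called 0 members at the adjusted threshold and gave 1 higher and 1 lower at the unadjusted one. These fits took the 12 libraries as independent, although by the paper's methods input and footprints came from the same lysates. With a term for each dish the DESeq2 test gave 2 members at an unadjusted p under 0.05, and a median member change of 0.17. The median log2 change in density was 0.18 over the members and -0.00325 over all tested genes, with 24 of 43 estimates above 0. For the 28 members with a standard error of at most 0.5 the change in density lay between -0.45 and 0.78 on the log2 scale. The other 15 members ranged from -1.77 (DHX58) to 3.19 (GBP1). Their standard errors were all above 0.5, so only large differences in density could have been detected for them. Few counts were not always the reason. Without the DMSO replicate 1 pair the standard error fell from 0.75 to 0.22 for TRIM25 and from 1.03 to 0.46 for ISG20, and neither was called.

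IFIT5 had the smallest p of the members, with a log2 density of 0.85, 0.66 and 0.87 in the DMSO replicates and 1.15, 1.48 and 1.499 in the trametinib replicates. The ranges did not overlap, and the change was 0.57 ± 0.19 (SE), with a DESeq2 p of 0.0030 and an adjusted p of 0.15. Scaling by library totals in place of size factors moved it to 0.75 with an adjusted p of 0.0057, on a scale that raised the median footprint change of all genes from 0.00166 to 0.19. The 8 members called in footprints and not in input were IFIT5, IFITM2, EIF2AK2, IRF2, IRF3, GBP1, MX1 and CMPK2, and in none of them did the test of the difference between the assays pass.

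**Figure D4:**
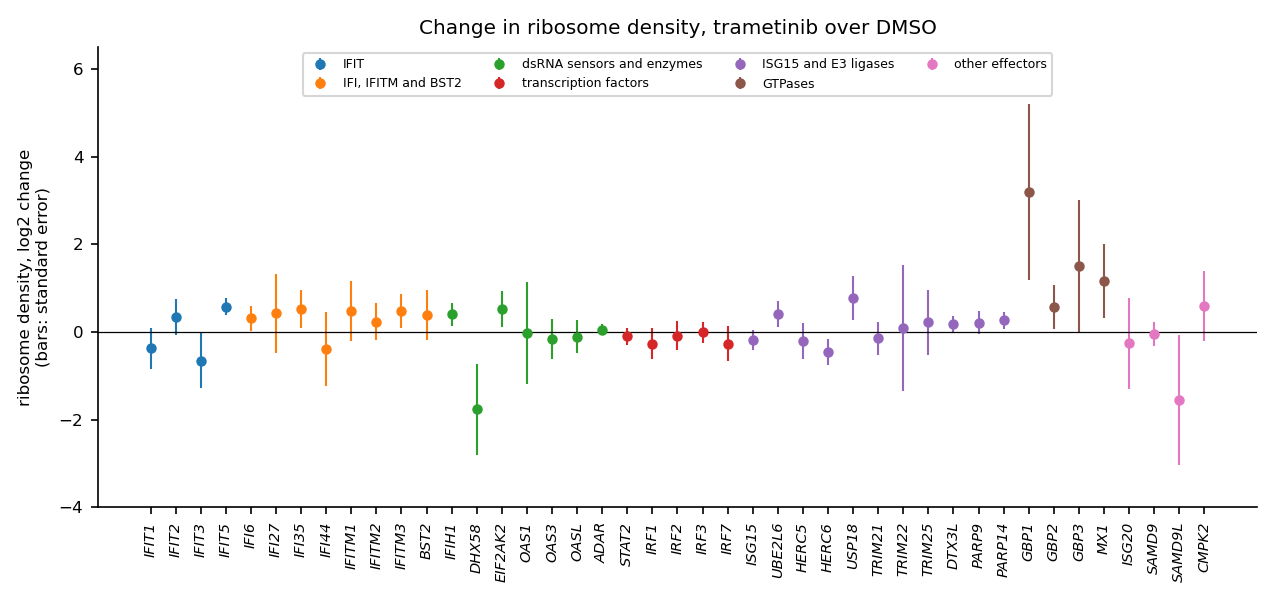
Log2 change in ribosome density, trametinib over DMSO, of the 43 tested members with its standard error, coloured by role. The estimates lie on both sides of 0, 24 of 43 above it, and 0 members pass the adjusted threshold. The widest bars belong to members with few input counts, such as GBP1, GBP3, SAMD9L and TRIM22.

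Most members carried more footprints per input read than the median gene in DMSO. The median log2 density was 0.62 over the 43 tested members and 0.049 over all tested genes, and 31 of the 43 lay above the median gene, as a description of these libraries. Among those above it, SAMD9L, TRIM22, OAS1, DHX58 and IFI27 had at most 3 counts in every DMSO input, so their ratios rest on very few reads. IFITM3 was highest at 2.93, in the upper 1% of all genes at a percentile of 99.6, followed by IFITM2 (2.50) and IFITM1 (2.01), then EIF2AK2 (1.89). The lowest were GBP3 (-1.83) and MX1 (-1.18), on few counts. In trametinib the median over the members was 0.60 and over all genes 0.033.

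Levels per 1000 bases of coding sequence can be compared between genes, except that reads on shared windows were not counted, which lowers the values of the IFITM genes most. ISG15 had a mean level of 1038 normalized counts in DMSO input on this scale and 2442 with trametinib. ADAR had 591 and 909.9, and IFITM3, with 70.3% of its windows shared, 359 and 684. In trametinib footprints IFITM3 had 7349 and ISG15 4788. IFIT1 moved from 20.0 to 285 in input on the same scale, and GBP2 from 5.35 to 94.9.

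Together the 50 members took a small part of each library that grew with treatment. Their share of input counts was 0.119% ± 0.00502 (SD, n = 3) in DMSO and 0.247% ± 0.00426 with trametinib. In footprints the share was 0.165% ± 0.0186 in DMSO and 0.427% ± 0.0285 with trametinib, with no overlap of groups in either assay. ADAR alone held 30.6% of the members' counts in DMSO input and 22.9% with trametinib.

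**Figure D5:**
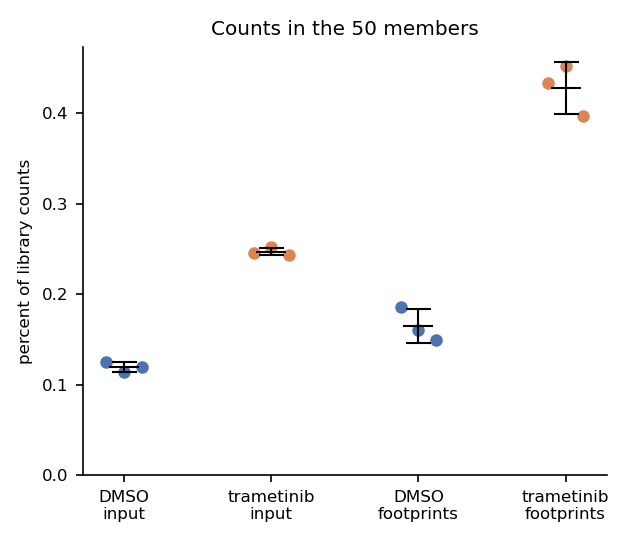
Percent of all counts of a library that fell on the 50 interferon-stimulated genes, for each of 12 libraries (points), with the mean and the SD of 3 replicates. The trametinib libraries lie at 0.243% to 0.252% in input and 0.396% to 0.452% in footprints, above all DMSO libraries of the same assay.

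Further interferon-responsive genes, none of them members, were also often higher. Of 60 other interferon-stimulated genes 43 were tested, and 27 were higher and 4 lower in input, with 33 higher and 3 lower in footprints, against 13.9% and 15.5% of all tested genes in input and 24% and 24.4% in footprints. The most changed of those called in both assays, by footprint change, were APOL3, APOL1, TNFSF10 and TRANK1. Of these, APOL3, APOL1 and TNFSF10 passed the filter through their trametinib libraries alone, so that they could hardly have come out lower. The counts of higher genes in this list do not set such genes apart. TNFSF10, the death ligand TRAIL, had 0 counts in all DMSO inputs and 43.3, 25.7 and 38.6 normalized counts with trametinib. Its footprints rose by 5.54 ± 0.42 (SE, adjusted p = 1.1e-05), on only 2, 4 and 1 counts in DMSO. APOL1, an apolipoprotein that lyses trypanosomes, rose by 6.20 ± 0.37 (SE, adjusted p = 2.8e-06) in footprints, on only 4, 0 and 3 counts in DMSO. TRANK1 rose by 3.90 ± 0.21 (SE, adjusted p = 1.3e-06) in footprints. APOL3 had 0 counts in every DMSO library and 11.1, 10.7 and 17.6 normalized footprint counts with trametinib. EPSTI1 was the only gene of this list called for density, with 1.91 ± 0.30 (SE, adjusted p = 0.00082) in footprints against -2.28 ± 1.14 (SE, adjusted p = 0.15) in input, on at most 3 input counts per library.

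Of 12 tested genes for MHC class I and antigen processing, which IRF1 is known to induce, 10 were higher in input and 11 in footprints. Over all tested genes 13.9% were higher in input and 24% in footprints. PSMB9, a subunit of the immunoproteasome, had 49.6, 71.3 and 44.5 normalized input counts in DMSO and 389.9, 497 and 437 with trametinib, and 82.1, 106 and 113 in DMSO and 828, 969 and 842 with trametinib in footprints. It rose by 2.98 ± 0.22 (SE, adjusted p = 3e-07) in input and 3.13 ± 0.15 (SE, adjusted p = 8.7e-07) in footprints, and the related PSMB10 rose by 2.67 ± 0.15 (SE, adjusted p = 1.6e-06) in footprints, TAPBP by 1.57 ± 0.14 (SE, adjusted p = 3.5e-05) and NLRC5 by 1.504 ± 0.20 (SE, adjusted p = 0.00033). Among 12 negative regulators of JAK-STAT signalling 2 were higher and 1 lower in input, and 3 higher and 2 lower in footprints, against 13.9% and 15.5% of all tested genes in input and 24% and 24.4% in footprints. SOCS1, an inhibitor of JAK1, was not called in input (0.83 ± 0.47 SE, adjusted p = 0.21) and rose in footprints by 1.03 ± 0.30 (SE, adjusted p = 0.018). SOCS3 rose by 1.17 ± 0.24 (SE, adjusted p = 0.0024) in input and was not called in footprints (0.24 ± 0.16 SE, adjusted p = 0.24), and its density change of -0.94 ± 0.30 (SE) had an adjusted p of 0.10 in the DESeq2 test. PTPN6, a phosphatase, rose by 1.09 ± 0.19 (SE, adjusted p = 0.0015) in footprints and PTPN1 fell, with -0.47 ± 0.13 (SE, adjusted p = 0.015). Of 9 tested nucleic acid sensing genes 3 were higher in both assays, where 12% of all tested genes were. The largest change was in TLR3, an endosomal sensor of double-stranded RNA, at 3.32 ± 0.27 (SE, adjusted p = 6.2e-07) in input and 3.38 ± 0.30 (SE, adjusted p = 3.4e-05) in footprints. MAVS (0.69 ± 0.13 SE, adjusted p = 0.0022) and IKBKE (0.88 ± 0.25 SE, adjusted p = 0.018) rose too, and TANK fell, with -0.92 ± 0.13 (SE, adjusted p = 0.0005).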

How the data were processed

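Input RNA and ribosome footprints of HCT116 cells were measured by ribosome profiling in 12 libraries, 3 per group. The authors removed adapters with the FASTX toolkit, discarded reads matching rRNA or tRNA with Bowtie 1.2.2, mapped the rest to Gencode transcripts, and deposited raw counts of reads inside open reading frames that fell on a single gene symbol. They also deposited counts divided by DESeq2 1.46.0 size factors, which serve here as normalized counts. Their columns of fold changes and p-values were not used. This scaling hides any change that affects all mRNAs alike.

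Genes were kept when 3 or more of the 12 libraries held 10 or more counts. Input and footprint changes were tested with edgeR 4.0.16 (R 4.3.3, trimmed mean of M-values scaling, quasi-likelihood test, 3 against 3 libraries), and ribosome density with the likelihood ratio test of the assay by treatment interaction in DESeq2 1.42.0 over all 12 libraries. P-values were adjusted over all 12000 genes by Benjamini-Hochberg, with 0.05 as threshold, two-sided. The edgeR test gives no standard error. For input and footprint changes SE is the absolute log2 change divided by the square root of the F statistic of that test. For density it is the standard error given by DESeq2. The scripts were tested on simulated data. Members with at most 3 counts in every DMSO library of an assay were taken as at the floor, and are given as counts, as a ratio or as a bound against 3 counts per library. Exact intervals (Clopper-Pearson, 95%) cover counting error only. Values in every library are given for members called with a log2 change of at least 1 and for the transcription factors. From each context list, up to 4 genes with the largest footprint change among those called in both assays are named, beside a few fixed signalling genes. Results for some genes are not reported here. The members and all lists were chosen with earlier results of these data known. Promoter sequences and motif shares come from RefSeq tables (GRCh38.p14), and shared windows from a later Gencode release than the one the authors used.

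Alternatives were DESeq2 or edgeR as the other test, other size factors, library totals, other count filters, each library left out in turn and the replicate number as a block. For density a block for each dish was a further alternative. Leaving out the DMSO replicate 1 pair was added after seeing the data. Same-numbered DMSO and trametinib libraries deviated together in footprints (r = 0.117, 0.133 and 0.294 over 7669 genes). DMSO replicate 1 did so about as much with trametinib replicate 2 (r = 0.122). In input they did not all do so (r = 0.068, 0.048 and 0.334), and DMSO replicate 2 went with trametinib replicate 1 (r = 0.277). Whether the numbers pair DMSO with trametinib libraries is therefore not settled.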

Additional observations from a re-analysis of the deposited data

How the results depend on the processing

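Of 200 recomputed counts and shares 181 stayed within a set margin of the reported value. The margin was a fixed fold limit for counts and the SD of the replicates for shares. These values include counts over all genes and counts of members that were 0. Of 1118 recomputed member changes 1047 kept their direction and side of the threshold. Leaving out single libraries gave 25 to 29 members higher in input, 35 to 40 in footprints and 0 to 2 lower in footprints, and 1084 to 1758 of all genes higher in input. For density the genes called higher ranged from 8 to 38 with single libraries left out, were 19 with the replicate block and 138 with library totals, which also gave 1 member (IFIT5). By edgeR 6 genes were higher and 90 lower in density. The cause was not tested. With the 100 most abundant genes removed the members' shares were 0.156% and 0.335% in DMSO and trametinib input and 0.208% and 0.541% in footprints, by construction on a smaller total.

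The direction of uncalled input changes turned with single libraries left out for EIF2AK2 (-0.37 to 0.32), OAS3 (-0.43 to 0.050), HERC5 (-0.13 to 0.41), TRIM25 (-0.57 to 0.32) and ISG20 (-0.35 to 0.65). In footprints it turned for HERC5 (-0.31 to 0.15), TRIM25 (-0.36 to 0.68) and ISG20 (-0.65 to 1.08). Library totals turned HERC5 (0.12) and TRIM25 (0.10) in footprints. On few counts the log2 input change of IFI44 ranged from 2.09 to 6.40, that of TRIM22 from 2.598 to 4.85, of IFI27 from 1.59 to 3.34 and of GBP3 from 2.04 to 3.34, and the GBP3 footprint change from 3.32 to 6.65.

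The replicate block turned the uncalled footprint changes of TRIM25 (0.13) and ISG20 (0.17), and beside IRF3 it changed no other footprint call of a member. In input it added edgeR calls for IFITM2 (adjusted p = 0.016) and IRF2 (adjusted p = 0.044). Depth limits input values most: 7 members were at the floor in DMSO input and 7 of the 50 could not be tested.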
